A study of Mus musculus with 9 samples.

Results

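Beta-defensins and other antimicrobial proteins of the epidermis were followed in back skin RNA of mice with a contact dermatitis that resembles atopic dermatitis (AD). The 9 genes were the beta-defensins Defb8, Defb1, Defb3, Defb4, Defb6 and Defb14 and the antimicrobial proteins Slpi, Lcn2 and Pglyrp4. They were picked by name from 34637 genes with an FPKM value (a level scaled to transcript length and library size), and 55401 genes were listed in the count table. The choice was made with the difference between the MR and MXL libraries known, and Defb8 led it, so the levels and fold changes of the 9 genes are given as a description, with no test.

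C57BL/6 male mice aged 6 to 8 weeks were shaved on the back, sensitized on day 1 with 200 μL of 1% 2,4-dinitrochlorobenzene (DNCB), a hapten that provokes contact allergy, and challenged 9 times from day 4 to day 21 with 100 μL of 0.5% DNCB. All mice of both groups received DNCB, so neither group was normal skin. After day 7 the FJDHF mice were fed Fangji Dihuang formulation (FJDHF), a herbal decoction, every day until day 28, at the dose the study calls FJDHF-M, and the Model mice were given water. The labels list 5 FJDHF and 4 Model mice. The tables name their libraries only by code: 5 codes start with MR and 4 with MXL, and neither code is explained. MR was taken as FJDHF-M and MXL as Model, from how many libraries each has and because MX may stand for model in Chinese, and every direction below rests on that reading. No code was matched to a single mouse, and codes with more than 1 number (MR3_4, MR4_5, MXL12, MXL3_4) may mark pooled RNA, so n counts libraries and the spread between them may be partly technical.

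Beta-defensins are short, positively charged peptides, stabilised by disulfide bonds, that keratinocytes and other epithelial cells secrete and that damage microbial membranes. Some are made all the time, whereas others are switched on by bacteria and by cytokines such as IL-17, IL-22 and IL-1, and several also attract immune cells through the chemokine receptor CCR6. Most beta-defensin genes lie in tandem clusters of near relatives, where a gene can share long stretches of sequence with its neighbours. Slpi inhibits the serine proteases of neutrophils and kills bacteria, Lcn2 starves bacteria of iron by binding their siderophores, and Pglyrp4 recognises and kills bacteria through the peptidoglycan of their walls.

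The 5 genes Defb14, Defb4, Defb6, Defb3 and Defb8 lay within 253 kb of chromosome 8 (GRCm38), and Defb1 began 2329 kb beyond Defb8 on the same chromosome. Defb8 (ENSMUSG00000031471) spanned chr8:19445769-19447606 on the minus strand. On the plus strand, Defb14 (ENSMUSG00000046354) spanned chr8:19194357-19195212, Defb4 (ENSMUSG00000059230) chr8:19198706-19201545, Defb6 (ENSMUSG00000050756) chr8:19225478-19228209, Defb3 (ENSMUSG00000039775) chr8:19293360-19295291 and Defb1 (ENSMUSG00000044748) chr8:21776599-21795185. Slpi (ENSMUSG00000017002, chr2:164354070-164356507, minus strand), Lcn2 (ENSMUSG00000026822, chr2:32384633-32387797, minus strand) and Pglyrp4 (ENSMUSG00000042250, chr3:90726906-90741517, plus strand) lay elsewhere. Each beta-defensin had 2 exons in GENCODE M21.

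The upstream sequences of Defb8 and of its relatives Defb3 and Defb6 are shown because Defb8 differed most between the groups while the groups overlapped for Defb6, whose upstream sequence is similar. Of the 9 genes, 5 were matched by symbol in the RefSeq promoter table (GRCm38.p6), namely Defb8, Defb3, Defb6, Slpi and Lcn2. The windows hold the 250 bases before the annotated start, 5′ to 3′ on the strand of the gene, at chr8:19447607-19447856 (minus) for Defb8, chr8:19293111-19293360 (plus) for Defb3 and chr8:19225228-19225477 (plus) for Defb6. The starts are those of the promoter table. The Defb3 window ends on the first base of Defb3 as listed above, whereas the Defb8 and Defb6 windows end just before that base. Capitals mark the octamer ATTTGCAT or the bases aligned with it, and the TATA box TATAA.
Defb8: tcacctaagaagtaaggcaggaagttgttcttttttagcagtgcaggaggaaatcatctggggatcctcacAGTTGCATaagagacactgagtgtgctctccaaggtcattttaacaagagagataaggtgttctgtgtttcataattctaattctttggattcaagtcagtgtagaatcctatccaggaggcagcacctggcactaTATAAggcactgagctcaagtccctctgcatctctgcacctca
Defb3: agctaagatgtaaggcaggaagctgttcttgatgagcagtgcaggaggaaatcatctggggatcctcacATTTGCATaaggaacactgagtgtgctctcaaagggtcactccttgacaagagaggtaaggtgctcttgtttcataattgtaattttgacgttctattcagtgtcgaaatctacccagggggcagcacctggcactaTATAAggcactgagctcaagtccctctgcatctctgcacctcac
Defb6: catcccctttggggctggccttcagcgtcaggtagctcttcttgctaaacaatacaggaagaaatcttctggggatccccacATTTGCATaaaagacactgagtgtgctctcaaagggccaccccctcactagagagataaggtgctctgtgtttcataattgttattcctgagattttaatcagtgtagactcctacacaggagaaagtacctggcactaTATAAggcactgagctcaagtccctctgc

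In pairwise alignments of these windows, Defb8 was identical to Defb3 at 220 of 246 aligned bases (89.4%) and to Defb6 at 189 of 232 (81.5%). The relatives Defb5 and Defb7 were identical to Defb8 at 85.2% and 83.9% of aligned bases, and the more distant Defb38 at 60.2%. Defb5, Defb7 and Defb38 had 0 counts in every library. All 3 printed windows held TATAA, at 43 bases before the start in Defb8, 44 in Defb3 and 29 in Defb6, against 16.0% of all 32851 promoter windows of this length on the sense strand. The windows are similar copies, so matches they share, here and for the octamer below, are not independent. The octamer, the binding motif of POU-domain factors, was found in Defb3 (181 bases before the start) and Defb6 (168 bases before). It was in 1.60% of all windows on either strand. The undetected Defb5 and Defb46 (82.5% identical to Defb8) held it too. Neither Defb7 nor Defb38 did, so its absence was not particular to Defb8. At the aligned place in Defb8, 179 bases before the start, the letters were AGTTGCAT, a single substitution T2G counted from the 5′ end of the octamer. The octamer was looked for after the windows had been seen, and a match or a missing match in these letters is a description and says nothing of binding. On either strand, the pattern GGGNNNNNCC of NF-kB sites was present in the windows of Defb3, Defb6 and Lcn2 and in 45.8% of all windows, whereas the AP-1 pattern TGANTCA (6.75% of all windows) and the STAT pattern TTCNNNGAA (7.02%) were present in none of the 5 matched members.

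**Figure D1:**
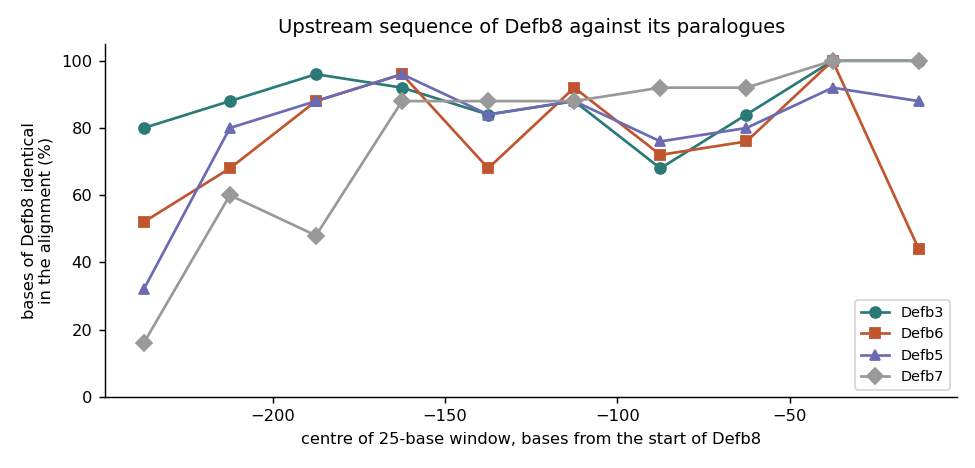
Share of the Defb8 bases in each 25-base window that were identical in the alignment with Defb3, Defb6, Defb5 or Defb7 (y axis, percent), against the distance of the window's centre from the annotated start of Defb8 (x axis, bases). All but Defb5 (92%) were identical to Defb8 over the window from 50 to 25 bases before the start, which holds the TATA box, and the fall of Defb6 to 44% in the last window goes with an annotated start that lies closer to its TATA box.

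The transcripts were similar as well, which bears on how reads could be assigned. The coding part of the first exon is shown for Defb8 (chr8:19447536-19447593, minus), Defb4 (chr8:19198733-19198790, plus), Defb3 (chr8:19293373-19293430, plus) and Defb6 (chr8:19225505-19225562, plus), with bases that differ from Defb8 in capitals.
Defb8: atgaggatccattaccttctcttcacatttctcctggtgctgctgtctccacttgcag
Defb4: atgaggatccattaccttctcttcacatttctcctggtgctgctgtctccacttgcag
Defb3: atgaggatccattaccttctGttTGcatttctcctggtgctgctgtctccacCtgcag
Defb6: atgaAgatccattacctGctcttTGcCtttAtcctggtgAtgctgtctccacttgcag

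All 58 bases were the same in Defb4 as in Defb8, whereas Defb3 differed at 4 and Defb6 at 7. The identical run of Defb8 and Defb4 reached 72 bases and covered the whole first exon of Defb8 (71 bases). Of the distinct 50-base words in the Defb8 transcript 9.66% (23 of 238) also occurred in Defb4, which was 5.68% of the words of Defb4, and none of the words of the other 7 genes occurred in the transcripts of another gene. A read that lies wholly within this run could be given to either gene, so part of the Defb4 counts may stem from Defb8 and the reverse. The sequencing mode stated in the paper gives reads longer than the run and than the 50-base words. A read of full length would thus also cover bases where Defb8 and Defb4 differ. How reads were assigned was not tested. MR4_5 and MR5 had the most Defb4 and were at the floor for Defb8, whereas among the MXL libraries the pair with the most Defb4, MXL3_4 and MXL12, also had the most Defb8. Over whole transcripts Defb8 was identical to Defb3 at 85.3% of aligned bases, to Defb4 at 77.2% and to Defb6 at 72.5%. No exon of the 9 genes overlapped an exon of another annotated gene on either strand, apart from 1 base of Slpi shared with Mir7678.

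The library totals ranged from 74648669 to 79474215 counts. A count of 3 or fewer was taken as the floor, which was 0.0375 to 0.0415 CPM (counts scaled to a common library size after TMM normalization) at these depths, and it covers counting error only, since copies made by PCR are not independent molecules. Listed counts of 4 were 1.89 to 2.17 times as frequent over genes as counts of 3 and 2.87 to 3.21 times as frequent as counts of 5 in every library, with a further excess at 8, so small counts may come in steps of 4 and 12 counts may stand for only 3 read pairs. Of the 9 genes, 8 passed the count filter, and Defb3 did not.

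Defb8 was the one member whose MR and MXL libraries did not overlap. Its counts were 21 in MR1, 5 in MR3, 6 in MR3_4, 0 in MR4_5 and 3 in MR5. In the MXL libraries they were 56 in MXL1, 227 in MXL12, 126 in MXL3_4 and 68 in MXL_3. Every MXL library was thus above every MR library, MR4_5 and MR5 were at or below the floor, and 4 of the 5 MR libraries were under 12 counts. The level was 0.0924 ± 0.109 CPM (SD, n = 5) in MR and 1.57 ± 1.03 CPM (SD, n = 4) in MXL, and the log2 fold change was -4.07 (SE 0.88), 16.8-fold lower in MR. Per length, it was 0.285 ± 0.347 FPKM (SD, n = 5) against 5.13 ± 3.40 FPKM (SD, n = 4).

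The choice of genes used this contrast, so nothing is read from the size of the Defb8 difference. Over all 20817 genes tested, 0.283% had every MR library below every MXL library and 0.231% the opposite. With edgeR, 0% of genes passed an adjusted p of 0.05 with a fold change of at least 2, and 0.908% (189 genes) passed the same fold at an unadjusted p under 0.05. DESeq2's Wald test called 2 genes, and limma on log2(FPKM + 1) called 0. The smallest adjusted p of the edgeR fit was 1.00 after rounding. Defb8 made up 0.823% to 4.28% of all beta-defensin counts of the 6 members in MXL libraries and 0% to 0.287% in MR libraries.

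Defb4, Defb3 and Defb14 are the relatives that epithelia raise on contact with bacteria or cytokines, and Defb14 is the counterpart of human beta-defensin 3. Defb4 had 24 counts in MR1, 32 in MR3, 25 in MR3_4, 189 in MR4_5 and 81 in MR5, against 8 in MXL1, 51 in MXL12, 78 in MXL3_4 and 8 in MXL_3. Its highest level was in MR4_5, where Defb8 was listed at 0, and the groups overlapped. The levels were 0.895 ± 0.881 CPM (SD, n = 5) in MR and 0.473 ± 0.445 CPM (SD, n = 4) in MXL, and the log2 fold change was 0.92 (SE 0.86), or 0.15 without MR4_5.

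Defb14 had 84 counts in MR1, 3 in MR3, 61 in MR3_4, 21 in MR4_5 and 0 in MR5, and 28 in MXL1, 67 in MXL12, 25 in MXL3_4 and 5 in MXL_3. The gene thus ranged from the floor to over 1 CPM within the MR libraries alone, and both groups held high and low libraries. The log2 fold change was 0.14 (SE 1.15). It was -0.56 without MR1 and 0.85 without MXL12.

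Defb3 was the scarcest member. It had 13 counts in MR1, 6 in MR3, 0 in MR3_4, 27 in MR4_5 and 7 in MR5, against 4 in MXL1, 9 in MXL12 and 0 in both MXL3_4 and MXL_3. Only MR1 and MR4_5 exceeded 12 counts, 3 libraries were at the floor, and with all 9 libraries no fold change was fitted with the count filter. Without a filter the log2 fold change was 1.63 (SE 1.43). In the fit without MXL12 and MXL_3, where Defb3 passed the filter, it was 2.34 (SE 1.78). The mean levels were 0.135 ± 0.130 CPM (SD, n = 5) and 0.0424 ± 0.0564 CPM (SD, n = 4).

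Defb1 and Defb6 carried nearly all of the beta-defensin counts, from 93.3% in MXL12 to 98.7% in MR3. Defb1, the mouse counterpart of the human gene DEFB1, is the beta-defensin that epithelia make without a stimulus. Its counts were 3651 in MR1, 2209 in MR3, 3196 in MR3_4, 3537 in MR4_5 and 3249 in MR5, and 3664 in MXL1, 3258 in MXL12, 3539 in MXL3_4 and 1161 in MXL_3. All but MR3 and MXL_3 lay between 41.4 and 48.5 CPM. The groups had 41.2 ± 8.02 CPM (SD, n = 5) and 37.8 ± 14.6 CPM (SD, n = 4), and the log2 fold change was 0.12 (SE 0.30), or -0.13 without MXL_3.

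Defb6, which was described in skeletal muscle as well as in epithelia, had 3521 counts in MR1, 1258 in MR3, 3349 in MR3_4, 1635 in MR4_5 and 1427 in MR5, against 3042 in MXL1, 1696 in MXL12, 3059 in MXL3_4 and 681 in MXL_3. High and low libraries occurred in both groups: MR1, MR3_4, MXL1 and MXL3_4 were at 38.5 to 46.7 CPM, and the other 5 libraries at 9.42 to 22.4 CPM. The levels were 29.5 ± 15.6 CPM (SD, n = 5) and 27.4 ± 14.3 CPM (SD, n = 4), and the log2 fold change was 0.10 (SE 0.47). MXL_3 had the highest level of skeletal muscle markers of all libraries and the lowest level of Defb6. Next in the mean log2(CPM + 0.5) of these markers were MR3 (9.67), with 15.7 CPM of Defb6, and MR3_4 (9.59), with 46.1 CPM. Over all 9 libraries r was -0.20 and rho -0.22. The part of muscle in the Defb6 level was not tested. Per length, Defb6 was 1.19 (MR5) to 2.83 (MR3_4) times the level of Defb1.

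Slpi had 324 counts in MR1, 297 in MR3, 172 in MR3_4, 715 in MR4_5 and 263 in MR5, against 568 in MXL1, 1012 in MXL12, 230 in MXL3_4 and 128 in MXL_3. The MXL libraries held both the highest and the lowest value. The levels were 4.55 ± 2.59 CPM (SD, n = 5) and 6.33 ± 5.25 CPM (SD, n = 4), and the log2 fold change was -0.48 (SE 0.58), or 0.19 without MXL12.

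Lcn2 had 444 counts in MR1, 531 in MR3, 489 in MR3_4, 652 in MR4_5 and 359 in MR5, and 630 in MXL1, 1241 in MXL12, 420 in MXL3_4 and 373 in MXL_3. Apart from MXL12, the libraries lay within 4.57 to 8.21 CPM. The levels were 6.41 ± 1.33 CPM (SD, n = 5) and 8.74 ± 5.27 CPM (SD, n = 4), and the log2 fold change was -0.45 (SE 0.36), or 0.052 without MXL12.

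Pglyrp4 had 928 counts in MR1, 635 in MR3, 624 in MR3_4, 1293 in MR4_5 and 908 in MR5, and 1378 in MXL1, 952 in MXL12, 608 in MXL3_4 and 300 in MXL_3. The range of the MXL libraries held that of the MR libraries. The levels were 11.3 ± 3.34 CPM (SD, n = 5) and 10.5 ± 5.77 CPM (SD, n = 4), and the log2 fold change was 0.11 (SE 0.39), or -0.15 without MXL_3.

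**Figure D2:**
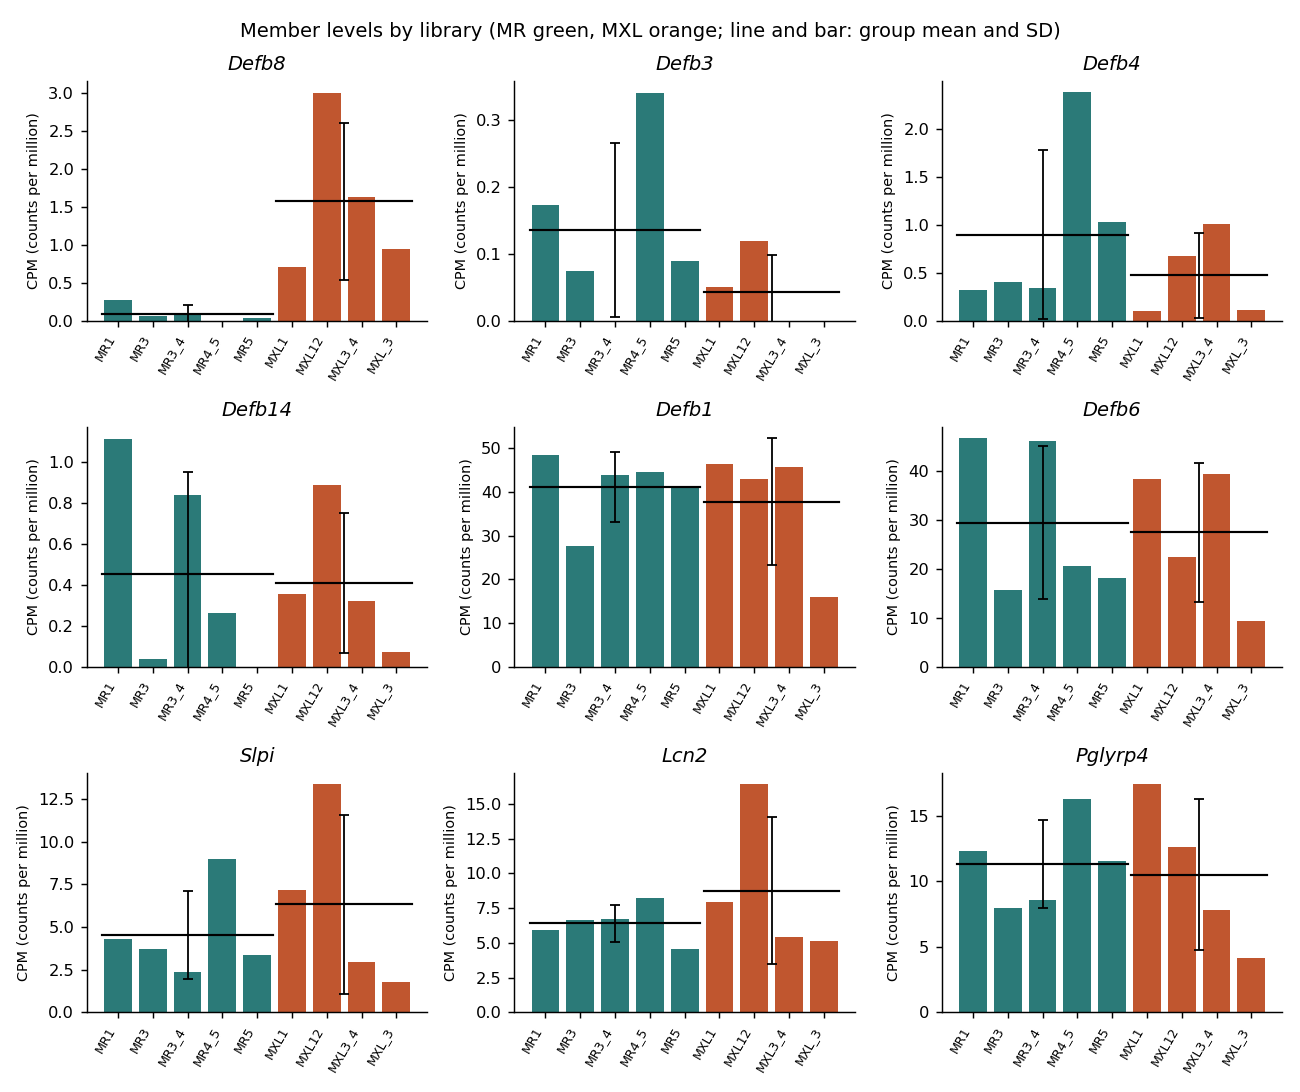
Level of each member in CPM (y axis, from 0, own scale per panel) in the 5 MR and 4 MXL libraries (x axis), with a line for the group mean and a bar for the SD. Defb8 is at 0 to 0.279 CPM in the MR libraries and at 0.708 to 3.00 CPM in the MXL libraries, and the groups overlap for the other 8 genes.

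**Figure D3:**
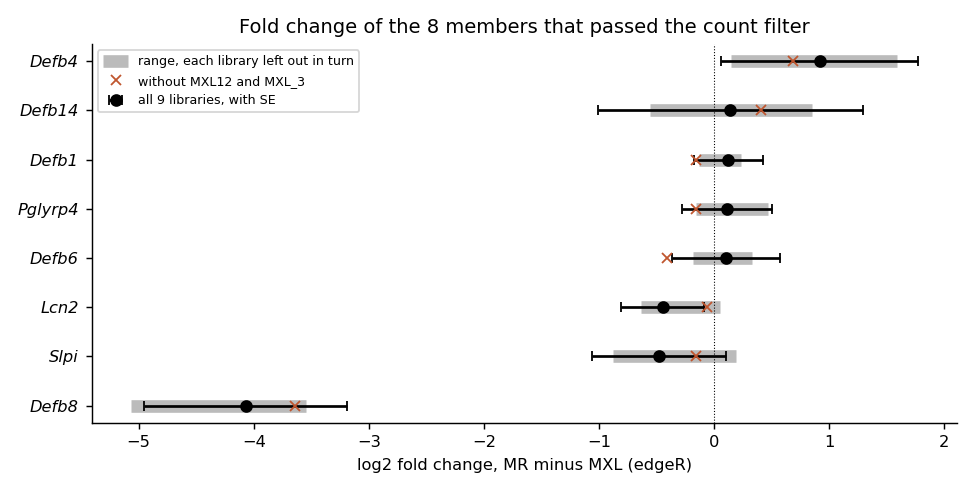
Fitted log2 fold change, MR minus MXL (x axis), of the 8 members that passed the count filter (y axis), with the SE as a line, the range over fits with any 1 library removed as a grey band, and the value without MXL12 and MXL_3 as a cross. Defb8 stays between -5.07 and -3.55, and the bands of all others except Defb4 cross 0.

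On the scale of level per length (FPKM, all 9 libraries), the order was Defb6 at 83.8 ± 40.4, Defb1 at 43.3 ± 11.8, Pglyrp4 at 4.43 ± 1.80, Slpi at 4.32 ± 3.11, Lcn2 at 2.69 ± 1.30, Defb8 at 2.44 ± 3.30, Defb14 at 1.97 ± 1.88, Defb4 at 1.49 ± 1.55 and Defb3 at 0.316 ± 0.383 FPKM (SD, n = 9). Defb6 was above Defb1, and Defb1 above Pglyrp4, in 9 of 9 libraries. From Pglyrp4 down to Defb4 no neighbours in this order differed beyond the spread of their log2 difference, and Defb4 was above Defb3 in 9 of 9 libraries. The place of Defb8 in this order held in neither group: its mean FPKM was the lowest of the 9 in MR (0.285, beside 0.461 for Defb3), and in MXL (5.13) it was below only those of Defb6 and Defb1. Slpi was close behind in MXL, at 5.08 ± 4.24 FPKM beside 5.13 ± 3.40 for Defb8 (SD, n = 4). Slpi was above Defb8 in MXL1 and MXL12 and below it in MXL3_4 and MXL_3. The length behind an FPKM can be read from the count, the library total and the FPKM: it was 302 bases for Defb8, near its transcript of 287 bases, and 2770 bases for Lcn2, whose longest protein-coding transcript in GENCODE M21 has 915 bases, so the FPKM of Lcn2 is low for its counts. It was 2491 bases for Pglyrp4 and 1243 bases for Slpi.

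**Figure D4:**
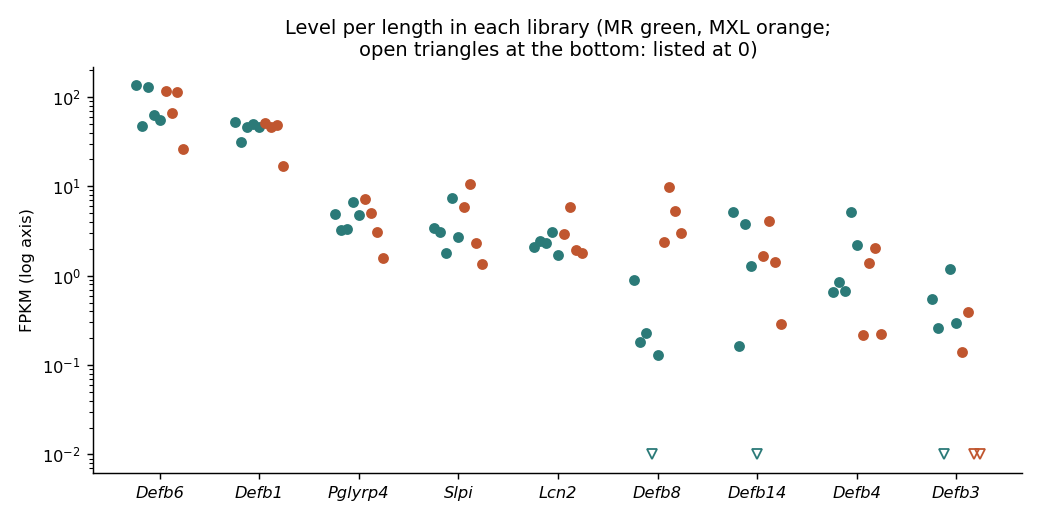
FPKM of each member in every library (y axis, log scale) with the members ordered by their mean over all 9 libraries (x axis), and open triangles for libraries listed at 0. Defb6 and Defb1 stand above the other 7 genes in every library, and Defb8 is the only one whose 2 colours separate.

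Across the 9 libraries, members varied together to different degrees, and the correlations of log2(CPM + 0.5) are given as a description with no test. Defb1 and Defb6 had Pearson's r = 0.82 and Spearman's rho = 0.85, and r = 0.75 without the 2 libraries farthest from the median of the gene named first. Defb1 and Pglyrp4 had r = 0.81 and rho = 0.55, but r = 0.13 without such libraries. Slpi and Pglyrp4 had r = 0.79 and rho = 0.85, and r = 0.90 without such libraries. Slpi and Lcn2 had r = 0.84 and rho = 0.75, and r = 0.59 without such libraries. Defb8 and Defb4, whose transcripts both hold the sequence of the first exon of Defb8, had r = -0.20 and rho = -0.40. After the group means were taken off, r was 0.21, so the sign turned. The points of every pair share the same libraries.

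The tested genes most similar to a member over the 9 libraries were, for Pglyrp4, Lgr6 (r = 0.98), Chmp1b (r = 0.97) and Fam81a (r = 0.97). For Defb6 they were Trappc3 (r = 0.97), Gm17115 (r = 0.95) and Prxl2a (r = 0.93), and for Defb1 Rps6ka6 (r = 0.96), Pof1b (r = 0.96) and C630043F03Rik (r = 0.95). Those of Slpi were Gm12248 (r = 0.94), Clcf1 (r = 0.93) and Gm12978 (r = 0.93), and those of Lcn2 were Gm48799 (r = 0.95), Hdc, the enzyme that makes histamine (r = 0.93), and Plaur (r = 0.93). Spearman's rho was lower for some of them: 0.68 for Rps6ka6 and for C630043F03Rik, 0.70 for Plaur and 0.77 for Hdc. For the others it was at least 0.85. These genes were the best of 20817 in only 9 libraries.

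Markers of skin cell types moved with several members. The 8 basal keratinocyte markers, among them Krt5 and Krt14, were detected in every library of this skin. The 10 differentiated keratinocyte markers, keratins and cornified envelope genes such as Krt1, Krt10, Flg and Ivl, were all detected in every library. Against 44.1% of all genes tested, all 10 of these markers had a fitted level higher in MR. Their summed level was 8555 to 16368 CPM in MR and 3395 to 9711 CPM in MXL, with an overlap through MXL1 and MR3. Their mean log2(CPM + 0.5) was 8.72 to 9.52 in MR and 7.52 to 8.85 in MXL. The choice of Defb8 used the contrast of the groups, so a relation over all 9 libraries carries that contrast. Within MR, MR1 had both the highest score (9.52) and the most Defb8 (21 counts). Within MXL, MXL1 had the highest score and the fewest Defb8 counts. MXL_3 had the lowest score (7.52) but 68 counts, against 227 in MXL12. MXL1, with a score of 8.85, lay within the MR range and had 56 counts of Defb8, against 5 in MR3 with a score of 8.72. The 6 fibroblast markers were detected in every library and all 6 had a fitted level lower in MR (median log2 fold change -0.42). Their summed level was 18431 to 32330 CPM in MR and 25446 to 46505 CPM in MXL. Other lists also went in a single direction: all 8 neutrophil and 7 sebaceous gland markers had a fitted level lower in MR, and all 7 macrophage and 5 melanocyte markers higher. Some of these signs turned when a single library was left out. Among neutrophil markers, Ngp then reached 0.22, Cxcr2 0.70, Csf3r 0.59 and Clec4d 0.68. The same was seen for Awat2 (0.12) and Fa2h (0.19) of sebaceous glands and for Col1a1 (0.21) and Pdgfra (0.00041) of fibroblasts. Of the macrophage markers, Adgre1 fell to -0.047, Mrc1 to -0.20 and C1qa to -0.10. The other markers of these lists kept their sign. With the difference between groups left in, Defb8 had r = 0.58 and rho = 0.73 with the fibroblast score. It had r = -0.76 and rho = -0.68 with the differentiated keratinocyte score. Defb4 had r = -0.81 and rho = -0.80 with the fibroblast score. The part of epidermal or dermal make-up in the Defb8 difference was not tested. In bulk skin, fewer cells of a type and less RNA per cell cannot be told apart.

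Of the 8 neutrophil markers, Ly6g and Mpo were at 0 in some libraries. The summed level was 31.0 to 62.7 CPM in MR and 20.3 to 317 CPM in MXL, highest in MXL12. In MXL1 (20.3 CPM) and MXL3_4 (21.4 CPM) it was below every MR library. Most single markers were highest there too, but Ngp was highest in MXL_3 (1482 counts, 233 in MXL12) and Mpo in MXL1 (63 counts, 6 in MXL12). MXL12 also had the highest Lcn2, Slpi and Defb8 of all libraries. The 8 skeletal muscle markers were detected in every library at 1518 to 9004 CPM in MR and 454 to 13359 CPM in MXL, with MXL_3 highest and MXL12 lowest, and MXL_3 had the lowest level of Defb1, Defb6, Slpi and Pglyrp4. The 7 activated keratinocyte markers, such as Krt6a, Krt6b and Krt16, were detected in every library, at 991 to 4098 CPM in MR and 240 to 2042 CPM in MXL. Their sum was highest in MR4_5 and lowest in MXL_3. Not every marker of the list followed the sum: Krt17 was highest in MXL1 (834 CPM), and Sprr2d (21.5 CPM) and Stfa3 (377 CPM) were highest in MR1. MR4_5 had the most Defb4 and Defb3 of all libraries and the most Slpi, Lcn2 and Pglyrp4 of the MR libraries. The part of neutrophils, muscle or keratinocyte activation in these levels was not tested. Without MXL12 and MXL_3, the log2 fold change was -3.64 for Defb8, 0.69 for Defb4, 0.41 for Defb14, -0.16 for Defb1, -0.40 for Defb6, -0.16 for Slpi, -0.064 for Lcn2 and -0.16 for Pglyrp4. The signs of Defb1, Defb6 and Pglyrp4 thus turned.

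**Figure D5:**
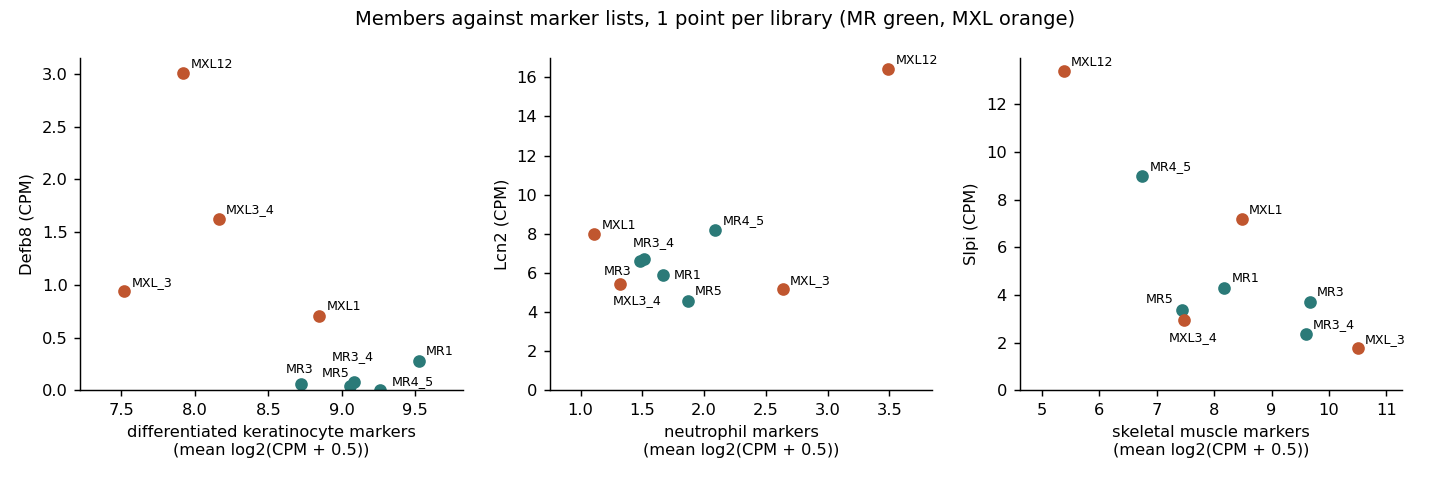
Level of Defb8, Lcn2 and Slpi in CPM (y axes) against the mean log2(CPM + 0.5) of differentiated keratinocyte, neutrophil and skeletal muscle markers (x axes), 1 point per library. The MXL libraries lie above the MR libraries in the Defb8 panel, and MXL12 has the highest Lcn2 beside the highest neutrophil score and the highest Slpi beside the lowest muscle score.

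Other genes of the pathway were read from lists and tested in the same edgeR fit, and no gene of any list passed an adjusted p of 0.05 with a fold change of at least 2 (adjusted p = 1.00 for each named gene). The count table held 42 beta-defensin genes of GENCODE M21, of which 30 had 0 counts in all 9 libraries. This allows up to 0.0415 CPM in a library, or up to 0.166 CPM if counts come in steps of 4. Of the 12 with a count, 6 were members, and the other 6 (Defb19, Defb25, Defb30, Defb37, Defb40 and Defb42) failed the count filter, with no more than 16 counts in any library. Defb37 was found only in MR3_4 (11 counts) and MXL12 (4 counts), and Defb42 had 0 to 16 counts in both groups.

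Of the other antimicrobial proteins, 19 of 24 were tested, 7 with a fitted level higher and 12 lower in MR, and none had an unadjusted p under 0.05. Their median log2 fold change was -0.17, beside -0.032 over all genes tested, of which 44.1% had a fitted level higher in MR. The smallest p belonged to Wfdc5, a whey acidic protein relative of Slpi, at 24.4 ± 8.38 CPM (SD, n = 5) in MR and 14.6 ± 9.18 CPM (SD, n = 4) in MXL, to Pglyrp3, the neighbour of Pglyrp4 in function, at 9.28 ± 3.54 and 5.31 ± 2.62 CPM, and to Nos2, the inducible nitric oxide synthase, at 1.48 ± 0.358 and 2.57 ± 2.57 CPM. MXL_3 held 463 counts of Nos2 and the remaining MXL libraries 80 to 132, and the log2 fold change of -0.80 became 0.20 without MXL_3. The most abundant per length were Lyz2, the lysozyme of macrophages and neutrophils, at 906 FPKM, and the ribonuclease Rnase4 at 433 FPKM. Lyz2 had a log2 fold change of 0.092 (SE 0.41) and Rnase4 of -0.15 (SE 0.21).

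Of 31 upstream signals, 28 were tested, 8 higher and 20 lower in MR, with a median log2 fold change of -0.12 (44.1% of all genes tested were higher). At an unadjusted p under 0.05, which 1.57% of all genes tested reached in either direction, 3 were higher, and these were the interleukin-36 genes, cytokines of keratinocytes that induce antimicrobial peptides. Il1f6 (interleukin-36 alpha) had 66.8 ± 29.4 CPM (SD, n = 5) in MR and 19.5 ± 6.80 CPM (SD, n = 4) in MXL, with a log2 fold change of 1.78 (SE 0.42). Il1f8 (interleukin-36 beta) had a log2 fold change of 1.11 (SE 0.37) and Il1f9 (interleukin-36 gamma) of 0.79 (SE 0.32). None of them passed the adjusted threshold in edgeR (adjusted p = 1.00).

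Of 11 receptors and partners, 10 were tested, 3 higher and 7 lower in MR, with a median log2 fold change of -0.25 (44.1% of all genes tested were higher). An unadjusted p under 0.05 (1.57% of all genes tested) was found for 3 of them: Klk5, a protease of the cornified layer that processes antimicrobial peptides, with a log2 fold change of 0.97 (SE 0.38), Ccr6, the receptor through which beta-defensins attract cells, at 0.990 ± 0.596 CPM (SD, n = 5) in MR and 1.98 ± 0.315 CPM (SD, n = 4) in MXL, and Trem1, an amplifying receptor of neutrophils and monocytes, with -4.08 (SE 1.66). MXL12 held 6440 counts of Trem1, the remaining MXL libraries held 24 to 32, and leaving MXL12 out turned the log2 fold change to 1.75. Klk7, the partner protease of Klk5 and the most abundant of the list per length, had 732 ± 213 CPM (SD, n = 5) and 466 ± 195 CPM (SD, n = 4), and the log2 fold change was 0.65 (SE 0.33). In all 4 lists, 3 genes combined an unadjusted p under 0.05 with at least a 2-fold change, Il1f6 and Il1f8 higher and Trem1 lower in MR, against 0.908% of all genes tested.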

How the data were processed

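RNA of mouse back skin was isolated with TRIzol and sequenced in pairs on an Illumina NovaSeq, per the labels. The submitters' processing notes name HISAT, StringTie, DESeq2 and the genome build mm10 (GRCm38), without the role of each, and whether counting used strand is not given in the sources used here. The deposited counts are whole numbers per gene, and a second table by the authors gives FPKM with gene names and positions. That table also repeats the counts in 9 columns, left out here after a check that their values were the same. Positions of 7 of the 9 genes equal those of GENCODE M21, and those of Slpi and Lcn2 differ at the end, so the annotation was another release.

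Counts of all genes were fitted with edgeR 4.0.16 (R 4.3.3; filterByExpr, TMM, quasi-likelihood test, Benjamini-Hochberg adjustment, no covariate). Alternatives used DESeq2 1.42.0 and limma 3.58.1, and the fits were checked on simulated counts. CPM used TMM-scaled library sizes, and scores were means of log2(CPM + 0.5). A gene was called at a 2-fold change with an adjusted p under 0.05. Sequences were read from RefSeq and GENCODE M21 tables and aligned globally. The genes and lists were chosen with earlier results of these data known. Named genes were every member, the 3 smallest unadjusted p and the 2 highest mean FPKM of each list, and the 3 genes most correlated with each member at or above 1 CPM.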

Additional observations from a re-analysis of the deposited data

Results flagged for a closer look

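Within each group, 70 comparisons of the highest or lowest library with the rest were made by Dixon's ratio (the gap to the nearest library over the range of the group), of which 6 passed the 95% critical value where 3.5 are expected, since chance passes about 1 in 20. Defb1 was low in MR3 among the MR libraries (Dixon's ratio 0.719) and low in MXL_3 among the MXL libraries (0.931). Defb37 stood apart in MR3_4 (1.00) and in MXL12 (1.00) because it was listed at 0 in all other libraries of the group, at 11 and 4 counts. Il1f9 was low in MR3 (0.777). Trem1 was high in MXL12 (0.966).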

How the results depend on the processing

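The fold change of Defb8 was -4.07, and it was -2.14 with limma on log2(FPKM + 1), which shrinks low values by construction, -3.12 with the replicate block, and -5.07 to -3.55 with any 1 library removed. Defb14 (0.14) was -0.62 with limma on log2(FPKM + 0.1), 0.93 with the replicate block and -0.56 to 0.85 with a library left out, and Defb4 (0.92) was 0.15 to 1.59. Leaving out single libraries gave -0.13 to 0.24 for Defb1, -0.18 to 0.33 for Defb6, -0.88 to 0.19 for Slpi, -0.63 to 0.052 for Lcn2 and -0.15 to 0.47 for Pglyrp4, and Lcn2 was 0.082 with the replicate block. Of 133 recomputed fold changes of members, 123 moved by less than the spread of the libraries. That spread was an SD of log2 levels, from 0.48 for Defb8 to 0.91 for Slpi. A turned sign, as for Slpi without MXL12, could thus count as not moved. Of the 10 that moved more, 4 belonged to Defb8, 4 to Defb14, 1 to Defb4 and 1 to Lcn2. Genes at an adjusted p under 0.05 with at least 2-fold numbered 0 with edgeR, also in each alternative edgeR and limma fit, and 2 with DESeq2's Wald test, Casp14 (higher in MR) and Defb8 (lower), which was chosen on this contrast, so its call supports nothing. At an unadjusted p, 189 genes passed (90 higher, 99 lower), 46 (40 and 6) with limma on log2(FPKM + 1), 128 (86 and 42) with limma on log2(FPKM + 0.1), 772 without a filter, 95 at a mean of at least 1 CPM, where Defb8 dropped out, 443 without MXL12 and MXL_3, and 140 to 431 with each library left out (431 without MXL1, 305 without MXL_3). Of the listed genes that are no members 3 passed, 5 without a filter, 6 without MXL12 and MXL_3 and 2 to 8 with each library left out (8 without MXL1, 5 without MR5 or MXL3_4). The causes were not tested. Fits without MXL12 and MXL_3 were added after seeing the data. The replicate block used the 3 numbers that MR and MXL codes share; same-numbered libraries deviated together with r = 0.22 (1), 0.12 (3) and -0.22 (3_4), so the numbers were not taken as a pairing, and 195 genes (136 higher, 59 lower) passed at an unadjusted p with the block. Depth limits Defb8 in MR and Defb3, where most libraries held under 12 counts.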
